A study of Rattus norvegicus with 7 samples.

Results

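A set of 10 genes that mark microglia or encode the chains of complement C1q was followed in hippocampus and hypothalamus of rats on a diet with DHA (docosahexaenoic acid, of the omega-3 series). They were chosen by name, with no threshold on their values: C1qa, C1qb and C1qc for the C1q chains, and Csf1r, Cx3cr1, P2ry12, Trem2, Itgam, Aif1 and Tmem119 as microglial genes. All 10 were found in both tables, among 15805 gene symbols listed in both. The libraries came from male Sprague Dawley rats that started at 2 months of age on a diet with DHA and stayed on it for 6 weeks. Of these rats 4 hippocampus and 3 hypothalamus libraries were used. The chow-fed arm of the study was not analysed here, and nothing below measures an effect of the diet. The labels number the replicates but do not say whether a hippocampus and a hypothalamus with the same number came from one rat, nor whether a library pools animals.

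Microglia are the resident macrophages of the brain. They depend on signalling through the receptor encoded by Csf1r, survey neurons through the receptors encoded by Cx3cr1 and P2ry12, and are the main source of C1q in the brain. C1q is the recognition molecule of the classical complement pathway and is built from equal numbers of A, B and C chains. It binds to targets such as immune complexes, dying cells and some synapses, after which its partner proteases activate the later complement components.

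The promoters of the C1q genes are shown first, since the A and B chain genes lie in 1 cluster and differed in how their transcript levels compared between the tissues. C1qb, C1qc and C1qa follow each other on rat chromosome 5 (RefSeq genes, assembly GRCr8) and were consecutive rows in both deposited tables. RefSeq promoter sequences in build GRCr8, from 250 bases before to 50 after the start of the gene, were found for 6 of the 10 genes and not for C1qc, P2ry12, Aif1 and Tmem119. They were searched on both strands for GAGGAA, whose reverse complement is TTCCTC, a core of sites bound by PU.1, the transcription factor that directs macrophage and microglial identity. In the sequences below, printed 5′ to 3′ on the strand of the gene, capitals mark these letters.
C1qa, chr5:154419884-154420183, minus strand: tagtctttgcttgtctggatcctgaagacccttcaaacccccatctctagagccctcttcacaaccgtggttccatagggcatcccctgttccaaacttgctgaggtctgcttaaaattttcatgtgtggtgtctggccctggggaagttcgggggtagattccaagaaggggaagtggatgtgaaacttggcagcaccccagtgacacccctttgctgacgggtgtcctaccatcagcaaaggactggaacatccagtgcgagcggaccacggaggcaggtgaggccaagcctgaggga
C1qb, chr5:154407778-154408077, minus strand: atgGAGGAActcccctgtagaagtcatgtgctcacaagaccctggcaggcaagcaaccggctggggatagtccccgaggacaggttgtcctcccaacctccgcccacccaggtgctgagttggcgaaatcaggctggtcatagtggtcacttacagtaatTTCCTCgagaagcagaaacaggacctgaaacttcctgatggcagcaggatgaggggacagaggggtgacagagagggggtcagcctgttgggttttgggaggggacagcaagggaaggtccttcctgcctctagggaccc
Cx3cr1, chr8:128677017-128677316, minus strand: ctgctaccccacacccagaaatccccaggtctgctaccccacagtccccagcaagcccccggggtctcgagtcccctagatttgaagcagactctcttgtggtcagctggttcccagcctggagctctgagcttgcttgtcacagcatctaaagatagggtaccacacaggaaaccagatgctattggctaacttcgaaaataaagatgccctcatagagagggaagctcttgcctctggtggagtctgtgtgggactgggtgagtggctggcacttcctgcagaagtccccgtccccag
Cx3cr1 is shown because it was the 1 gene of the 10 that was higher in every hippocampus library. The letters occurred once on each strand in the C1qb window and were not in the windows of C1qa and Cx3cr1. Of the other windows, those of Csf1r, Trem2 and Itgam held them, so that 4 of 6 did, where 27.6% of all 33469 promoters of this length do. These matches describe the letters only.

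Values are FPKM, a fragment count divided by transcript length and by the size of the library, which the authors deposited in a separate table for each tissue. A library's FPKM added up to 370020 to 391349 in hippocampus and 443335 to 471484 in hypothalamus. Sequencing depth is unknown, so no interval for counting error is given, and with 3 or 4 libraries a tissue the SD itself is imprecise. Tissue and table cannot be told apart. No test was made across them. Instead, each library was rescaled to the same sum over the symbols found in both tables, and a gene is given as higher in 1 tissue where its libraries there all exceeded those from the other tissue.

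C1qb showed the widest gap between the tissues of the 10 genes. C1qb, which encodes the B chain, read 17.7, 13.7, 14.9 and 12.4 FPKM in hippocampus replicates 1 to 4. In hypothalamus replicates 1 to 3 it read 73.0, 76.9 and 68.7 FPKM. The lowest hypothalamus library was therefore several times the highest hippocampus library, with no overlap. The mean was 14.7 ± 2.27 FPKM over the hippocampus libraries (SD, n = 4) and 72.9 ± 4.07 FPKM over those of hypothalamus (SD, n = 3). After rescaling, the mean of C1qb was 4.04 times as high in hypothalamus, a difference of −2.0 (hippocampus minus hypothalamus) on the log2(rescaled FPKM + 1) scale. On that scale 4.31% of the 10736 symbols compared lay further towards hypothalamus.

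C1qa, the gene of the A chain, differed far less. It read 58.3, 54.0, 56.1 and 38.6 FPKM in the hippocampus libraries and 67.0, 72.7 and 73.6 FPKM in the hypothalamus libraries. As deposited, the tissues did not overlap, but replicate 4 of hippocampus stood well below the other 3. After rescaling, the hippocampus libraries ran from 110 to 170 and the hypothalamus libraries from 159 to 173, so that they overlapped, with a difference of −0.18 on the log2 scale. That difference was −0.47 in FPKM as deposited and −0.04 after rescaling without hippocampus replicate 4. C1qc, the gene of the C chain, lay between the other chains in this respect. Its hippocampus libraries read 26.3, 15.6, 20.5 and 12.6 FPKM, and its hypothalamus libraries read 37.8, 51.0 and 46.2 FPKM. These ranges did not overlap before or after rescaling, and the difference was −0.99 on the log2 scale.

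**Figure D1:**
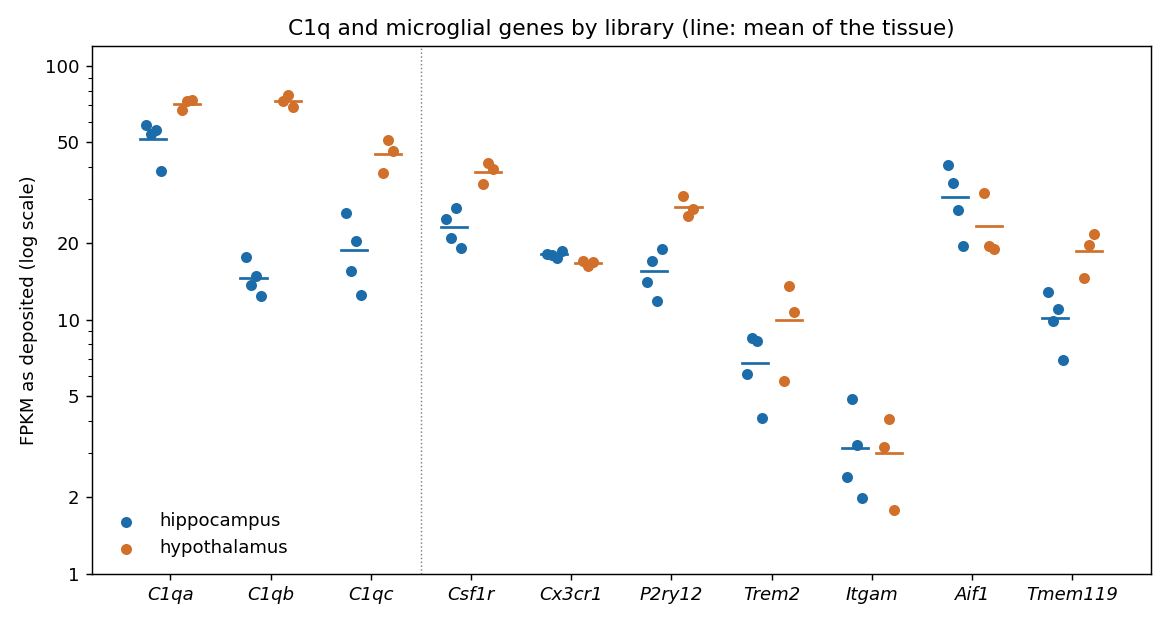
FPKM as deposited (log axis) of the 3 C1q chain genes, left of the dotted line, and the 7 microglial genes, right of it; each point is a library and each short line the mean of a tissue (4 hippocampus and 3 hypothalamus libraries). C1qb shows the widest gap, 12.4 to 17.7 FPKM in hippocampus and 68.7 to 76.9 FPKM in hypothalamus, while the points of Cx3cr1 lie closest together.

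Ratios between the chain genes do not depend on how a library was scaled. They may depend on the locus and length that each table used for a gene, which was not tested. In hippocampus, C1qb over C1qa was 0.304, 0.254, 0.265 and 0.321 in replicates 1 to 4. In hypothalamus it was 1.09, 1.06 and 0.934. The B chain transcript thus stood near the level of the A chain transcript in every hypothalamus library and well under it in every hippocampus library, with means of 0.286 ± 0.0318 (SD, n = 4) and 1.03 ± 0.0824 (SD, n = 3). C1qc over C1qa was 0.358 ± 0.0696 in hippocampus and 0.632 ± 0.0683 in hypothalamus, again without overlap. C1qb over C1qc ran from 0.672 to 0.984 in hippocampus and from 1.49 to 1.93 in hypothalamus. Of the summed FPKM of the chain genes, C1qa made up 57.0% to 64.8% in hippocampus and 36.2% to 39.0% in hypothalamus, and C1qc took overlapping shares of 18.8% to 25.7% and 21.3% to 25.4%.

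Only the hippocampus table lists a second locus of C1qb, XLOC_022032, away from the other C1q rows. It read 0.0239, 0.351, 0.183 and 0.717 FPKM in replicates 1 to 4. Adding it to the first locus left the difference of C1qb at −2.0. How the authors divided fragments among neighbouring or overlapping loci is not given in the sources used here, and its part in the ratios of the chain genes was not tested.

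**Figure D2:**
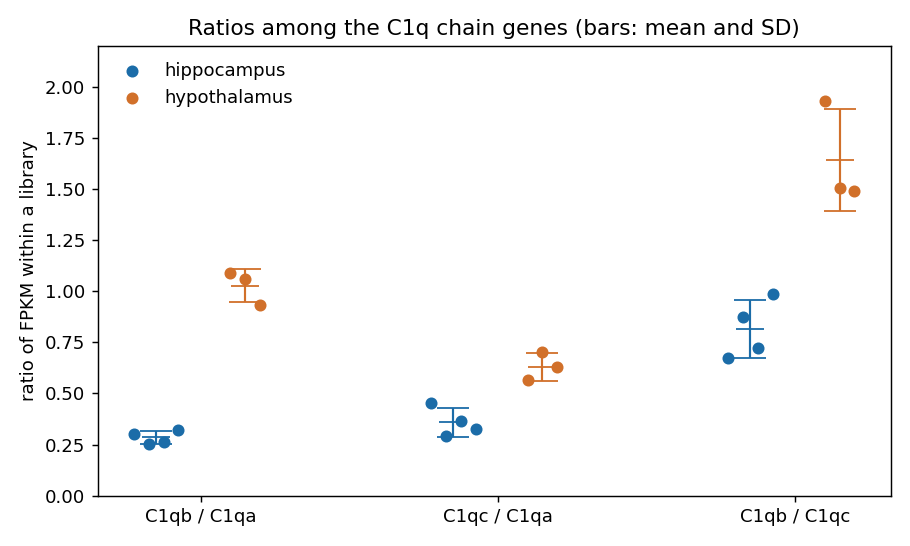
Ratios of FPKM within each library for the 3 pairs of C1q chain genes (linear axis from 0); points are libraries and bars give mean and SD over 4 hippocampus or 3 hypothalamus libraries. For each pair the tissues separate, most widely for C1qb over C1qa at 0.254 to 0.321 in hippocampus and 0.934 to 1.09 in hypothalamus.

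Among the receptor genes, Csf1r and P2ry12 were higher in every hypothalamus library. Csf1r encodes the receptor for the survival factors CSF1 and IL-34. It read 25.1, 20.9, 27.6 and 19.1 FPKM in hippocampus and 34.3, 41.3 and 39.2 FPKM in hypothalamus, a difference of −0.43 after rescaling. The result for Csf1r rests on its main locus. A second locus, listed in both tables between Slc6a7 and Slc26a2, read 8.70 to 10.9 FPKM in hippocampus and 4.55 to 5.13 FPKM in hypothalamus, so it lay the other way. With the loci summed, the difference of Csf1r shrank to −0.12 and the tissues overlapped.

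P2ry12 encodes a receptor for ADP that steers microglial processes and is a marker of microglia at rest. Its hippocampus libraries read 14.1, 17.0, 11.9 and 19.1 FPKM and its hypothalamus libraries 30.7, 25.7 and 27.4 FPKM. No hippocampus library reached the lowest hypothalamus library, and the difference was −0.56 after rescaling.

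Cx3cr1, the receptor gene for the neuronal chemokine fractalkine, went the other way by a small amount. It read 18.3, 18.0, 17.6 and 18.7 FPKM in hippocampus and 17.1, 16.3 and 16.9 FPKM in hypothalamus. The difference was 0.40 after rescaling and 0.10 in FPKM as deposited, and every hippocampus library was the higher in both. Over all libraries of a tissue, Cx3cr1 varied least among the 10 genes, though without hypothalamus replicate 1 C1qa and Aif1 varied less there. Its SD of log2(FPKM + 1) was 0.036 in hippocampus and 0.035 in hypothalamus, and 0.438% and 1.73% of all loci averaging 1 FPKM or more had a smaller one. Without hypothalamus replicate 2 its SD there was 0.010.

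Trem2 and Itgam were the lowest of the 10 genes in both tissues and did not separate them. Trem2, whose product senses lipids and lipoproteins on the surface of microglia, read 6.10, 8.48, 8.28 and 4.09 FPKM in hippocampus. In hypothalamus it read 5.72, 13.5 and 10.7 FPKM, with an SD of 0.57 on the log2 scale that dropped to 0.22 without replicate 1. Itgam encodes the alpha chain of complement receptor 3, which binds C3 fragments. It read 2.40, 4.87, 3.20 and 1.98 FPKM in hippocampus and 3.14, 4.07 and 1.79 FPKM in hypothalamus. The ranges of both genes overlapped between the tissues, and leaving out hypothalamus replicate 2 moved the difference of Trem2 from −0.23 to 0.03.

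Aif1 and Tmem119, common histological markers of microglia, had means on opposite sides. Aif1, which encodes the actin-binding protein IBA1, read 40.9, 34.7, 27.2 and 19.5 FPKM in hippocampus and 31.6, 19.5 and 19.1 FPKM in hypothalamus. The ranges overlapped, and the difference of 0.66 after rescaling came with an SD of 0.46 in hippocampus on the same scale. Without hypothalamus replicate 1 or without hippocampus replicate 4, every remaining hippocampus library of Aif1 was the higher, with differences of 0.91 and 0.86. Tmem119, a transmembrane protein gene largely restricted to microglia in the brain, read 12.9, 9.86, 11.0 and 6.97 FPKM in hippocampus and 14.7, 19.6 and 21.7 FPKM in hypothalamus. As deposited its tissues did not overlap, and after rescaling they did, with up to 37.5 in hippocampus against 34.9 at the lowest in hypothalamus. Without replicate 1 of hippocampus or of hypothalamus, every remaining hypothalamus library of Tmem119 was the higher, with differences of −0.70 and −0.72.

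In counts, 4 of the 10 genes (C1qb, C1qc, Csf1r and P2ry12) were higher in every hypothalamus library, where 24.4% of all 10736 symbols compared were. Cx3cr1 alone was higher in every hippocampus library, where 28.2% of symbols were. After rescaling, C1qb was the 1 gene of the 10 that was also at least 2-fold higher in hypothalamus by the log2 means, against 13.4% of symbols. C1qc lay just under that fold, and passed it under each other scaling, at −1.26 in FPKM as deposited, −1.10 with upper-quartile and −1.01 with median-of-ratios scaling. It also passed at −1.01 with a pseudocount of 0.1, at −1.03 with loci summed and with some libraries left out, but not with a pseudocount of 5, at −0.94. Shares of 4 in 10 and 1 in 10 are not far from these backgrounds. The median difference of the 10 genes was −0.33 and that of all symbols 0.05. In FPKM as deposited, C1qa and Tmem119 joined the genes higher in hypothalamus, making 6, while 35.2% of all symbols were then higher there and the median of all symbols was −0.21. The median of the 10 genes, then −0.59, lay −0.38 from that of all symbols, as it did after rescaling. In whole tissue, fewer cells of a type and less RNA per cell cannot be told apart.

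**Figure D3:**
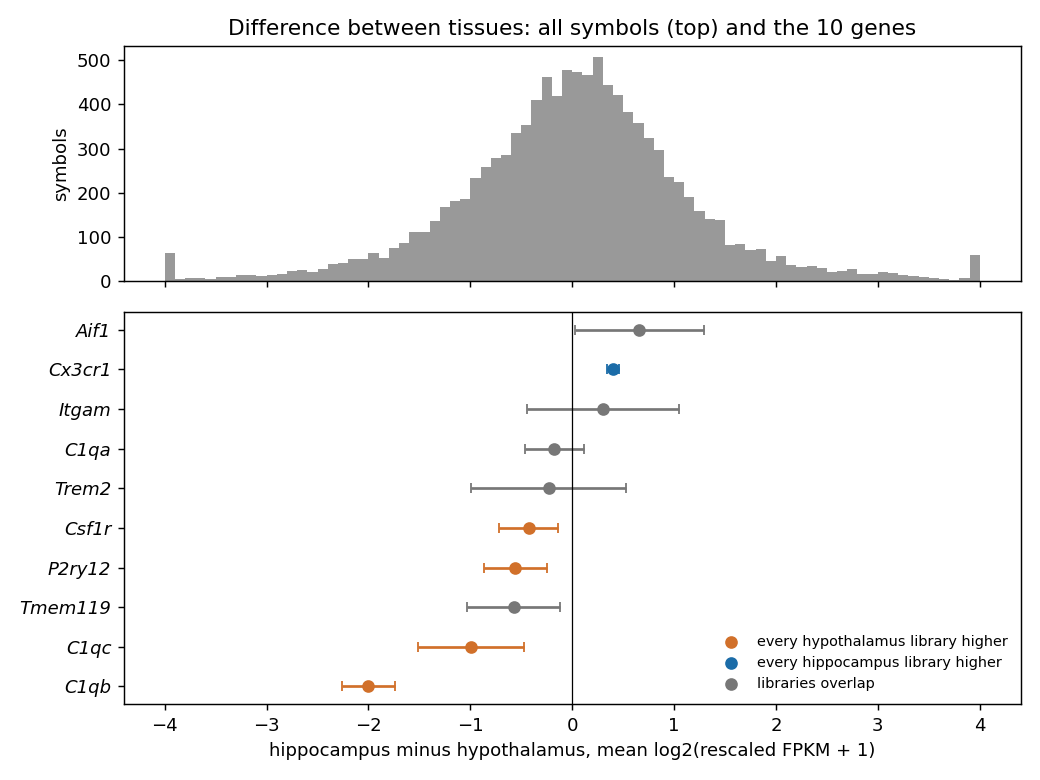
Top, the number of symbols by difference between tissues (hippocampus minus hypothalamus, mean log2(rescaled FPKM + 1)) for all 10736 symbols compared, with those beyond 4 either way in the end bins; bottom, the same difference for each of the 10 genes, with bars of the root of the summed squared SDs of the tissues. C1qb at −2.0 and C1qc at −0.99 lie furthest towards hypothalamus and Aif1 at 0.66 furthest towards hippocampus.

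The order of the genes by level per length differed between the tissues. In hippocampus C1qa had the highest mean, 51.7 ± 8.97 FPKM (SD, n = 4), followed by Aif1, Csf1r, C1qc, Cx3cr1, P2ry12, C1qb, Tmem119, Trem2 and Itgam. The ranges of neighbours in this order overlapped in all 9 pairs. Within each of the 4 libraries, though, C1qa lay above Aif1, C1qb above Tmem119, Tmem119 above Trem2, and Trem2 above Itgam. In hypothalamus C1qb led, followed by C1qa at 71.1 ± 3.60 FPKM (SD, n = 3), C1qc, Csf1r, P2ry12, Aif1, Tmem119, Cx3cr1, Trem2 and Itgam. There, 4 of the 9 neighbouring pairs did not overlap: C1qa lay above C1qc, Csf1r above P2ry12, Cx3cr1 above Trem2, and Trem2 above Itgam. C1qb was the seventh in hippocampus and the first in hypothalamus, while Itgam was last in both. Among symbols averaging 1 FPKM or more, C1qa stood above 86.4% in hippocampus and 89.4% in hypothalamus, and Itgam above 15.7% and 13.2%.

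As shares of the summed FPKM of the 10 genes, the make-up of the libraries was distinct by tissue. The C1q chains together made up 41.5% to 46.2% in hippocampus and 56.4% to 58.9% in hypothalamus. C1qb moved most, from 7.63% ± 0.523 (SD, n = 4) to 22.3% ± 1.05 (SD, n = 3). Aif1 went the other way, at 15.6% ± 2.80 in hippocampus and 7.21% ± 2.45 in hypothalamus, and so did Cx3cr1, at 9.61% ± 1.79 and 5.14% ± 0.329. The share of C1qa was higher in every hippocampus library too, and that of C1qc in every hypothalamus library by a narrow margin. Shares of the other 5 genes overlapped, with Csf1r at 10.6% to 13.9% in hippocampus and 10.9% to 12.1% in hypothalamus. With its loci summed, the share of Csf1r was 14.6% to 17.9% in hippocampus and 12.2% to 13.4% in hypothalamus and no longer overlapped. Since shares add up to the whole, the higher share of C1qb lowers those of the other genes.

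**Figure D4:**
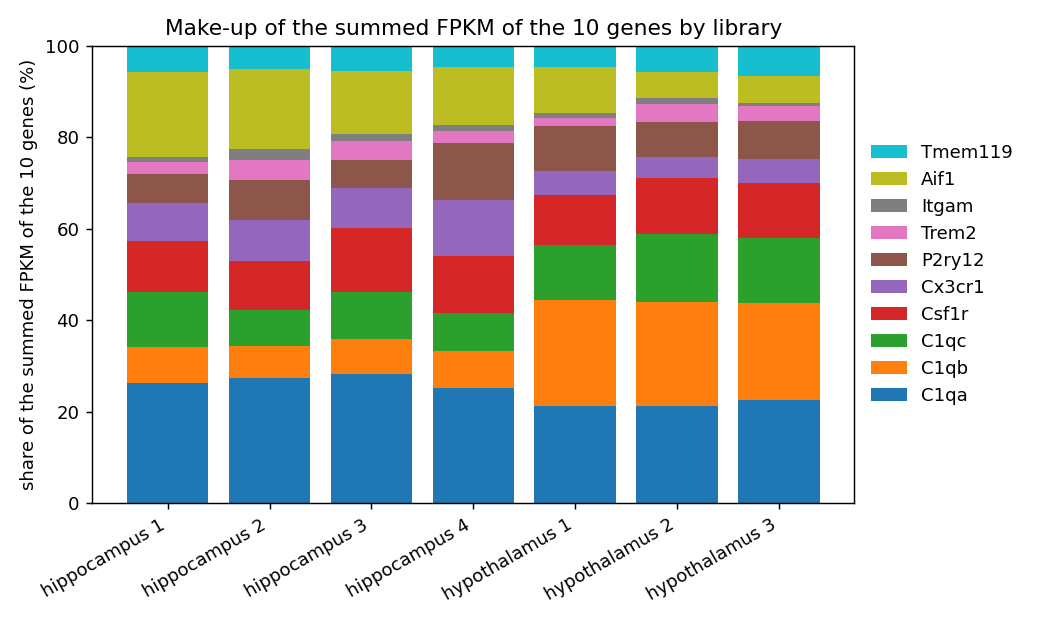
Stacked shares (%) of each of the 10 genes in their summed FPKM, one bar for each of the 4 hippocampus and 3 hypothalamus libraries. The C1qb band is 6.95% to 8.10% of each hippocampus bar and 21.1% to 23.2% of each hypothalamus bar, and the Aif1 band is narrower in the hypothalamus bars.

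Within hippocampus, replicate 4 was the lowest library for 8 of the 10 genes, namely all but Cx3cr1 and P2ry12, for which it was the highest. Its median deviation from the tissue mean over the 10 genes was −0.41 on the log2(FPKM + 1) scale, where that of all loci in this library was −0.0030. It was the lowest library for 35.0% of all loci averaging 1 FPKM or more and the highest for 34.5%, so that it lies at an end for many genes. Among 28 other microglial genes described below, it was the lowest for 7 and the highest for 9. Replicate 1 was the highest for C1qa, C1qb, C1qc, Aif1 and Tmem119. Summed over the 10 genes, hippocampus replicates 1 to 4 read 222, 197, 198 and 153 FPKM, and hypothalamus replicates 1 to 3 read 315, 341 and 325 FPKM. What set replicate 4 apart was not tested.

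The median SD of log2(FPKM + 1) over the 10 genes was 0.18 in hypothalamus, where all loci had 0.25, and 0.31 in hippocampus, where all loci had 0.24. Single libraries set much of this spread: the median was 0.079 without hypothalamus replicate 1 and 0.21 without hippocampus replicate 4. C1qa had an SD of 0.073 in hypothalamus, or 0.012 without replicate 1, and 0.27 in hippocampus, or 0.055 without replicate 4. C1qb had 0.080 and 0.20, with 0.052 in hypothalamus without its replicate 3, 0.11 there without its replicate 1, and 0.12 in hippocampus without its replicate 1. Aif1, Itgam and Trem2 had SDs from 0.40 to 0.57 in both tissues. Without hypothalamus replicate 1 those of Aif1 and Trem2 there were 0.022 and 0.22, and without hippocampus replicate 4 they were 0.29 and 0.23 in hippocampus. The SD of Itgam was 0.21 in hypothalamus without replicate 3 and 0.25 in hippocampus without replicate 2. Hypothalamus replicate 1 was the lowest for C1qa, C1qc, Csf1r, Trem2 and Tmem119 and the highest for Aif1, Cx3cr1 and P2ry12. Of all loci, 37.6% were lowest and 43.1% highest in that library, so these counts are near the background.

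**Figure D5:**
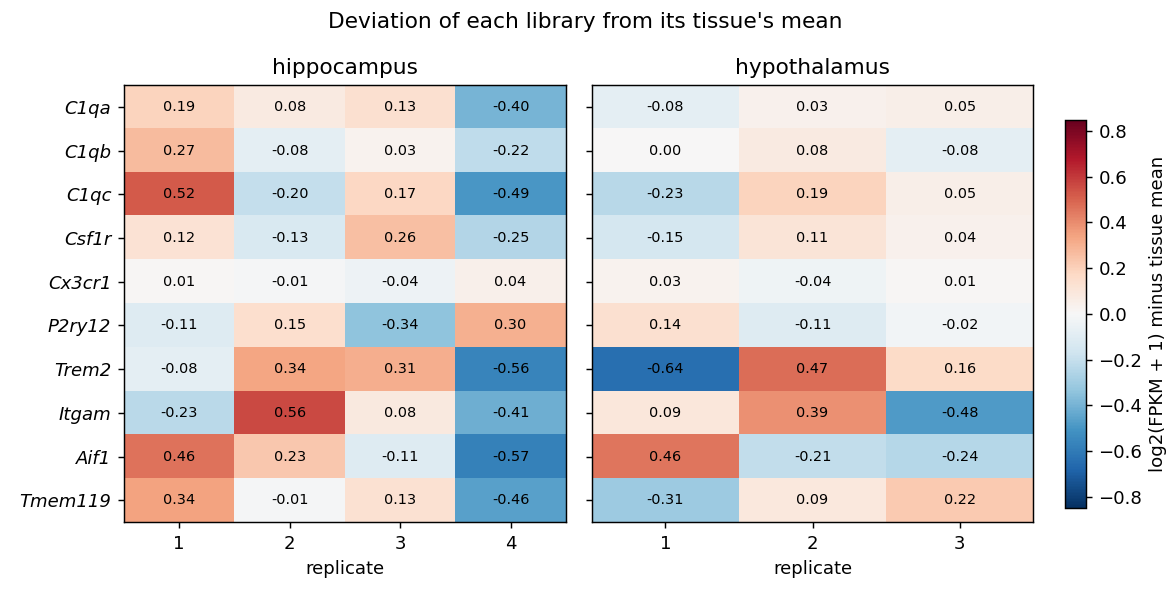
Deviation of log2(FPKM + 1) in each library from the mean of its tissue, for the 10 genes (rows) and the replicates (columns); red is above and blue below the mean, with the value printed. In hippocampus replicate 4, 8 of the 10 genes are blue, down to −0.57 for Aif1, while P2ry12 is at 0.30.

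Of 18 listed components from the proteases to the terminal complex, 9 were found in both tables and 6 were compared; the other 9 were not analysed here. C1r, the protease that docks onto C1q, read 2.86, 3.16, 6.99 and 3.20 FPKM in hippocampus and 16.6, 23.2 and 13.4 FPKM in hypothalamus. It was higher in every hypothalamus library under all 4 scalings tried. C3, on which the pathways converge, read 4.15 ± 0.961 and 6.00 ± 0.978 FPKM and overlapped between the tissues. Masp1 and Masp2, proteases of the lectin pathway, were higher in every hippocampus library after rescaling, while in FPKM as deposited both overlapped. Masp1 read 15.0 to 18.8 FPKM in hippocampus and 11.9 to 17.6 FPKM in hypothalamus, where a second locus of it was left out. The 1 gene higher in hypothalamus and 2 in hippocampus became 2 and 0 in FPKM as deposited, while the shares of all symbols went from 24.4% and 28.2% to 35.2% and 19.0%.

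Regulators of complement summed to 638 to 941 FPKM in hippocampus and 2017 to 2516 FPKM in hypothalamus, most of it Clu. Of 7 compared, 4 were higher in every hypothalamus library and 2 in every hippocampus library, beside 24.4% and 28.2% of all symbols, with a median difference of −0.52. Under each of the other 3 scalings the counts were 5 and 1, beside 25.7% to 35.2% and 19.0% to 27.2% of all symbols. Clu, which encodes the extracellular chaperone clusterin that blocks the terminal complex, had means of 544 ± 147 FPKM over hippocampus and 1907 ± 248 FPKM over hypothalamus libraries. Cd59, a membrane inhibitor of the terminal complex, read 68.3 ± 6.88 and 121 ± 21.3 FPKM, and Cd55, which disables the convertases, 2.08 ± 0.883 and 6.75 ± 0.518 FPKM. Csmd1, a large synaptic complement inhibitor, was higher in hippocampus, at 5.68 ± 0.732 against 2.22 ± 0.258 FPKM. Susd4 was higher in every hippocampus library after rescaling but overlapped as deposited, at 68.3 to 93.4 against 51.0 to 79.9 FPKM. C1qbp, which encodes a mostly mitochondrial protein that can bind C1q, read 88.6 ± 8.38 and 138 ± 15.2 FPKM.

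Of 6 receptor genes compared, 1 was higher in every hypothalamus library and 1 in every hippocampus library, beside 24.4% and 28.2% of all symbols. Itgb2 encodes the beta chain that pairs with the product of Itgam, and it read 3.92, 2.24, 3.95 and 2.32 FPKM in hippocampus against 6.59, 7.35 and 6.25 FPKM in hypothalamus, while Itgam itself did not separate the tissues. Itgam over Itgb2 ran from 0.612 to 2.18 in hippocampus and from 0.286 to 0.555 in hypothalamus. Megf10, an engulfment receptor of astrocytes that can bind C1q, was the 1 higher in hippocampus after rescaling and overlapped as deposited, at 5.12 to 5.73 and 2.63 to 6.08 FPKM. A second locus of Megf10, listed only in hypothalamus, is left out of these values. Calr and Cd93, also named as C1q-binding proteins, overlapped at 236 to 333 and 231 to 396 FPKM and at 1.76 to 2.93 and 1.95 to 3.38 FPKM.

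Other genes of microglial identity leaned towards hypothalamus. Of 32 listed, 29 were found and 28 compared; 15 were higher in every hypothalamus library, 1 in every hippocampus library and 12 overlapped, where 24.4% and 28.2% of all symbols fell in the first and second class. The median difference was −0.72. In FPKM as deposited the counts were 18, 1 and 9, beside 35.2% and 19.0% of all symbols, and 15 and 1 kept their call under all 4 scalings. The 1 gene was Sall1, a transcription factor gene of microglial identity, with 1 locus in hippocampus and 2 in hypothalamus. Its call rests on the highest locus, with the second one in hypothalamus left out. Ly86, a partner of a Toll-like receptor relative, showed the largest difference, at 1.51 ± 0.449 FPKM in the first tissue and 11.8 ± 2.65 FPKM in the second. Fcer1g, a signalling adaptor of Fc receptors, read 30.6 ± 2.59 and 124 ± 14.8 FPKM. Tyrobp, the adaptor through which the receptor encoded by Trem2 signals, read 15.4, 13.3, 11.1 and 11.4 FPKM in hippocampus and 54.0, 61.2 and 38.4 FPKM in hypothalamus. Trem2 over Tyrobp was accordingly 0.360 to 0.743 in hippocampus and 0.106 to 0.280 in hypothalamus. A second locus of Tyrobp, listed only in hippocampus, is left out of these values. Cd68, a lysosomal membrane protein gene, had means of 0.879 ± 0.718 and 4.73 ± 1.84 FPKM. Ctss, a lysosomal protease gene and the most abundant of the list, overlapped after rescaling, at 159 ± 16.2 and 242 ± 72.2 FPKM.

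Ligands and partners of the receptors did not follow their receptors in a common direction. Cx3cl1, the ligand gene for Cx3cr1, read 284, 323, 344 and 270 FPKM in hippocampus and 56.6, 85.0 and 104 FPKM in hypothalamus, a difference of 2.23 beside 0.40 for the receptor. Both were higher in every hippocampus library under all 4 scalings. Il34 and Csf1, the ligand genes of Csf1r, are given for their role and were picked after their values were seen. Il34 read 23.0 to 27.7 FPKM in hippocampus and its difference was 0.05, and Csf1 read 3.55 to 6.27 FPKM with a difference of −0.47, both with overlap. Apoe, a lipoprotein gene whose product binds the receptor encoded by Trem2, averaged 777 ± 268 FPKM over hippocampus and 3995 ± 720 FPKM over hypothalamus libraries. Cd200 and Sirpa, which take part in signals that restrain microglia, overlapped after rescaling, at 72.0 ± 21.6 and 130 ± 27.7 FPKM and at 54.0 ± 6.17 and 60.9 ± 13.3 FPKM. Of the 12 genes of this list that were compared, 4 were higher in every hypothalamus library, 2 in every hippocampus library and 6 overlapped, near the 24.4% and 28.2% of all symbols. Beside those named, Itgb2 and the cytokine gene Tgfb1 were among the 4 and Cd47 was among the 2, the last only after rescaling.

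Other macrophages and blood cells share several of the 10 genes, so their markers were read in the same libraries. Of 7 markers of perivascular macrophages, 6 were found, and their summed FPKM was 3.05 to 12.7 in hippocampus and 13.8 to 64.8 in hypothalamus. Most of the hypothalamic sum was Pf4, a chemokine gene also found in platelets, at 19.9, 50.3 and 8.17 FPKM. Of the 4 compared, Pf4 and Lyve1 were higher in every hypothalamus library and Mrc1 and F13a1 overlapped, beside 24.4% and 28.2% of all symbols. Of 14 markers of blood leukocytes, 12 were found, with sums of 37.9 to 105 and 79.5 to 207 FPKM, of which Lyz2 held 35.7 to 96.5 and 75.3 to 199 FPKM. Of the 4 compared, Ncf1, an oxidase subunit gene of phagocytes, was higher in every hypothalamus library, Cd3e, a T cell gene, in every hippocampus library, and 2 overlapped, near the 24.4% and 28.2% of all symbols. Cd3e read 3.43, 4.47, 6.24 and 1.39 FPKM in hippocampus and 0.0484, 0.135 and 0 FPKM in hypothalamus. Other T cell genes of the list did not follow it and were too low to be compared. Cd3g, Cd8a and Cd2 averaged 0.116, 0.0482 and 0.0336 FPKM in hippocampus and 0.429, 0.260 and 0.318 FPKM in hypothalamus. Ncf1 ran from 0.453 to 1.01 FPKM and from 1.78 to 3.81 FPKM. Cd3e and Ncf1 were named after their values were seen. Meningeal genes, 5 of 5 found with Col1a2 listed at 0 throughout, summed to 81.8, 30.5, 251 and 95.2 FPKM in hippocampus and 162, 377 and 69.0 FPKM in hypothalamus. The libraries highest in them, hippocampus replicate 3 and hypothalamus replicate 2, were also the highest in perivascular macrophage markers. Without these libraries, an alternative chosen after the data were seen, C1qb, C1qc, Csf1r and P2ry12 were the 4 genes higher in hypothalamus and Cx3cr1 the 1 higher in hippocampus, beside 28.4% and 30.5% of all symbols, and the difference of C1qb was −1.96. The sums of perivascular macrophage markers still separated the remaining libraries, at 3.05 to 5.38 FPKM in hippocampus and 13.8 and 31.6 FPKM in hypothalamus. The part of other macrophages in the levels was not tested.

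Genes of activated or lipid-handling microglia, of which 19 of 20 were found and 11 compared, split 4 to hypothalamus, 2 to hippocampus and 5 with overlap, shares not far from the 24.4% and 28.2% of all symbols. The median difference of the 11 was −1.29, where that of all symbols was 0.05. Beside Apoe, the most abundant, those 4 were Spp1, Lgals3 and Cybb, and the 2 were Lpl and Tnf, named after their values were seen. Tnf averaged 38.1 ± 18.1 FPKM over hippocampus libraries and 4.64 ± 4.72 FPKM over those of hypothalamus. Its symbol had 3 loci in the first tissue and 2 in the second, and its call rests on the highest locus of each. Il1b, Il6 and Nos2, also of this list, were too low to be compared. Markers of the other brain cells were read as summed FPKM. Astrocyte genes, led by S100b, summed to 1339 to 1912 in hippocampus and 1879 to 2583 in hypothalamus, and oligodendrocyte genes, led by Mbp, to 3871 to 4618 and 5793 to 7498. After rescaling, 2 of the 6 astrocyte genes, Aqp4 and Aldh1l1, were higher in every hypothalamus library and 4 overlapped, S100b among them. Aqp4 and Aldh1l1 kept that call under all 4 scalings, with differences of −1.19 and −1.30. Of the 6 oligodendrocyte genes, Mbp and Mobp were higher in every hypothalamus library and Mog and Cnp in every hippocampus library. Of the 6 neuronal genes, 4 were higher in every hippocampus library (2 in FPKM as deposited) and Tubb3 in every hypothalamus library, and of the 4 endothelial genes Cldn5 and Flt1 were higher in every hippocampus library, though Cldn5 overlapped as deposited. Neuronal genes, led by Snap25, summed to 1631 to 2502 and 1301 to 1646, and endothelial genes, led by Cldn5, to 81.1 to 128 and 54.1 to 74.7. Choroid plexus genes, led by Ttr, spread from 34.8 to 5903 in hippocampus and from 13.4 to 49.4 in hypothalamus. Of the red cell genes only Alas2 was found, at 1.39 to 5.50 FPKM and 5.78 to 21.3 FPKM. The part of these cell types in the levels of the 10 genes was not tested.

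Genes whose pattern over the 7 libraries was most like that of the 10 were sought among 8460 other symbols averaging 5 FPKM or more in either tissue. Likeness was the root mean square difference of log2(rescaled FPKM + 1), each profile centred on its own mean. Closest to the mean profile of the C1q chains were Cbs, Tmem43, Tmem129, Gpld1 and Atg3, at 0.078 to 0.10. Among the chains, C1qc lay at 0.13 from that mean, and C1qa and C1qb at 0.44 and 0.48 on either side of it, so the mean profile stands for C1qc more than for the others. Closest to the mean of the other 7 genes were Sema4d, Coa4, Mapkapk2, Ddt and Lman2, at 0.069 to 0.089, while the 7 genes themselves lay 0.24 to 0.48 from their own mean. The median over all candidates was 0.71 for the first profile and 0.46 for the second. Aif1, at 0.48, lay farther from the common profile of the microglial genes than the median candidate did, and Csf1r, at 0.24, lay closest.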

How the data were processed

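RNA sequencing of 4 hippocampus and 3 hypothalamus libraries was analysed. Libraries were made from poly-A RNA and sequenced on an Illumina instrument, per the labels' protocols. The authors deposited FPKM, in 1 table per tissue, with a status word after each value. The submitters' processing notes name TopHat, TopHat2, Bowtie, Bowtie2, Cufflinks, Cuffdiff and the build rn5. Versions, the annotation, the strand setting and how FPKM were normalized between libraries are not given in the sources used here.

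Loci not marked OK throughout a table were dropped (86 in hippocampus, 24 in hypothalamus), and the locus with the highest mean FPKM stood for a symbol. SDs within a tissue use log2(FPKM + 1) as deposited, over loci averaging 1 FPKM or more. On it, changes of genes with low values come out too small. Between tissues, FPKM of shared symbols were brought to a total of 1000000 per library, and symbols averaging 1 FPKM or more in either tissue were compared by non-overlap of libraries. No test was run: each table holds 1 tissue, and since their locus numbers differ they were treated as separately quantified. The comparison was tested on simulated data. Low FPKM values gave a common step between replicates 2 and 3 of hippocampus (21.6% of 450 loci at 1 ratio), but not with replicate 1 (at most 3.66%), so depth was not recovered.

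The 10 genes and the 15 gene lists were chosen with earlier results of these data known. All 10 are described. Of each complement, microglial and ligand list, the 4 most abundant genes and the 3 with the largest difference among those that separated the tissues are named, and of each list of another cell type used here the most abundant. The values of 1 gene that this rule names are not reported here. Older symbols were matched through the RefSeq gene table of GRCr8, and none of its coordinates were joined to the deposited values. Analyses used Python 3.11.15, pandas 2.3.3 and numpy 2.4.6. A planned comparison of the C1q protein sequences was not made. Alternatives were other scalings, pseudocounts of 0.1 and 5, no filter, summed loci and left-out libraries.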

Additional observations from a re-analysis of the deposited data

Results flagged for a closer look

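Among 81 results screened in the 4 hippocampus libraries, 5 had 1 library far from the other 3, judged by its gap to the nearest library as a share of the whole range. Chance flags about 1 in 20 such results, or 4.05 of 81. Itgam over Itgb2 was 0.612, 2.18, 0.812 and 0.854 in replicates 1 to 4, with replicate 2 the highest and a gap of 0.845 of the range. The summed FPKM of the listed complement components was 29.3, 29.5, 41.4 and 31.3, with replicate 3 the highest and a gap of 0.837. This sum includes the lectin pathway genes Masp1 and Masp2, with Masp1 at 15.0 to 18.8 FPKM. C1r, a gene of that sum, had a gap of 0.917, again from replicate 3 at 6.99 FPKM. Cd68 read 0.474, 0.655, 1.95 and 0.440 FPKM, with replicate 3 the highest and a gap of 0.857. S100b read 1165, 1115, 1094 and 736 FPKM, with replicate 4 the lowest and a gap of 0.834. Replicate 3 also had the highest sums of meningeal and perivascular macrophage genes, 251 and 12.7 FPKM, whose part in these values was not tested.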

How the results depend on the processing

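The comparison put 4 of the 10 genes on the side of hypothalamus and 1 on that of hippocampus. Without replicate 1 of both tissues the counts were 6 and 2, while the shares of all symbols went from 24.4% and 28.2% to 33.2% and 40.8%. Leaving out 1 library at a time gave 4 to 5 and 1 to 2, where Aif1 joined Cx3cr1 without hippocampus replicate 4 or without hypothalamus replicate 1. Over these left-out libraries the shares of all symbols were 24.9% to 29.4% and 28.7% to 36.7%. C1qb, C1qc and P2ry12 were on the side of hypothalamus and Cx3cr1 on that of hippocampus under all 16 alternatives, and Csf1r under all but the summed loci, which gave 3 and 1. The median difference of the 10 genes, −0.33, ran from −0.59 in FPKM as deposited to −0.19 without hippocampus replicate 4. Of the differences of single genes, 153 of those recomputed moved by less than the spread between replicates and 7 by more. The SDs of single genes moved more, with 20 of the recomputed SDs past the limit and 110 within it. No paired analysis was possible because the labels do not say that samples with the same number came from the same rat, and no result comes from a test. Depth is unknown, so counting error is not included in any value.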
